A study of Homo sapiens with 2 samples.

Results

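The ephrins and their Eph receptors were examined in KYSE-170 cells, an established human oesophageal squamous carcinoma line, after transfection with miR-210. The members were the 10 genes EFNA1, EFNA3, EFNA4, EFNA5, EFNB1, EFNB2, EPHA1, EPHA2, EPHB2 and EPHB4, each read by the probe that carries its current symbol. They made up 10 of the 12445 genes named on the array, with 1 probe each. EFNA3 is the member that has been reported as a target of miR-210, in endothelial cells.

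The study had 2 samples, both of KYSE-170 cells transfected with the HiPerFect reagent and grown in medium with 5% fetal bovine serum. One received oligoribonucleotides for miR-210, and the other received an oligoribonucleotide called ncRNA, whose sequence the labels do not give. For each sample, cRNA made from total RNA was labelled with Cy5 and hybridised to a separate 1-colour oligonucleotide array. With 1 array per transfection no test was possible, and every difference below is a single measurement.

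Ephrins are ligands held in the membrane of one cell that bind Eph receptor tyrosine kinases on its neighbour. A-class ephrins are anchored by a glycolipid and B-class ephrins span the membrane, and both sides of the contact can signal, which governs cell repulsion, sorting and tissue boundaries. In stratified squamous epithelium EPHA2 and its ligand EFNA1 are known to act in keratinocyte differentiation and in the restraint of growth factor signalling. miR-210 is a microRNA induced by hypoxia, and it lowers its targets by pairing of its seed with their messenger RNAs.

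The sequences of both arms of miR-210 are shown because the labels do not say which arm was transfected, and the seed of an arm is what pairs with its targets. They are RefSeq's, from the minus strand of GRCh38.p14, at chr11:568112-568133 for miR-210-3p and chr11:568150-568171 for miR-210-5p, and the capitals mark the seed, bases 2 to 8.
miR-210-3p: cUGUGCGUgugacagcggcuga
miR-210-5p: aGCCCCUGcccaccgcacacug
The hairpin that carries both arms lies at chr11:568089-568198, on the same strand, and its capitals mark miR-210-3p.
miR-210 hairpin: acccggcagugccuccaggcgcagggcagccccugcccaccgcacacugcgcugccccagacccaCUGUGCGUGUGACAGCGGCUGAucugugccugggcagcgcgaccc
A full match to the seed of miR-210-3p in a transcript would read ACGCACA. Of the 2370 names of mature human microRNAs in the RefSeq table, only miR-210-3p had this seed. The form in which miR-210 was transfected is not given in the labels, and sites in the members' transcripts were not analysed here.

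The miR-210 array had a median intensity of 36 and the ncRNA array a median of 39. Values are deposited intensities unless stated otherwise, and each ratio is miR-210 over ncRNA on the log2 scale after quantile normalization. A gene was kept where its mean level over both arrays reached an intensity of 37.5, the median of all probes, and 6684 genes were. Over 251 genes with 2 or more kept probes, probes of the same gene scattered around their gene's ratio with a SD of 0.44, and this value is the spread between probes named in what follows. Of the 6 squamous epithelium markers with a probe, 5 were kept, with log2 ratios of 0.90 for KRT5, 0.80 for PKP1, 0.24 for KRT14, 0.19 for DSG3 and -0.57 for SFN. After normalization PKP1 stood at 50.5 on the miR-210 array and 29.0 on the ncRNA array, so it passed through the miR-210 array, where it was higher. TP63, at 22 on the miR-210 array and 57 on the ncRNA array, was not kept. Of 10 markers of fibroblasts, endothelium and leukocytes, 7 were under the filter, but VWF, CD79A and DCN were kept. DCN read 181 on the miR-210 array and 183 on the ncRNA array. In the same order CD79A read 126 and 133, and the kept probe of VWF read 103 and 126. The mean normalized levels of EFNA4, EPHA1, EPHB2 and EPHB4 were no higher than that of CD79A. Whether the cells express DCN was not tested, and passing the filter was not taken to show that a gene was expressed.

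EFNA3, the ligand gene reported as a miR-210 target, differed between the arrays by less than the spread between probes. It read 459 on the miR-210 array and 514 on the ncRNA array, which is 1.04-fold lower with miR-210 after normalization (log2 ratio -0.06). This lay well within the spread between probes of 0.44, and EFNA3 ranked 2959 from the lowest of 6684 genes. With no normalization, median scaling, loess on level or an offset of 10, its ratio lay between -0.16 and -0.04. The -0.16 was on the deposited scale, where the median gene stood at -0.12. Changing the filter or averaging probes could not move it, as EFNA3 had 1 probe and passed each filter. For 3 other reported targets the same arrays gave log2 ratios of -3.63 for FGFRL1, which encodes an FGF receptor that lacks the kinase domain, -1.21 for GPD1L, which is related to glycerol-3-phosphate dehydrogenase, and -0.43 for ISCU, the iron-sulfur cluster scaffold. FGFRL1 read 21 on the miR-210 array and 277 on the ncRNA array, so it passed the filter through the ncRNA array alone, and with an offset of 10 its log2 ratio was -3.13. GPD1L read 177 on the miR-210 array and 449 on the ncRNA array, and ISCU read 192 and 281 in the same order. The ISCU ratio also lay inside the spread between probes, close to its edge, and ISCU ranked 1154 from the lowest of 6684 genes. These measurements are of RNA, and protein was not measured. In RNA from a whole culture, fewer cells with a transcript and less of it per cell cannot be told apart.

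EFNA4 and EFNA1, A-class ephrin genes that flank EFNA3 on chromosome 1 in the RefSeq annotation, also differed little. EFNA4 read 125 on the miR-210 array and 135 on the ncRNA array, a log2 ratio of -0.02. EFNA1, the ligand best known for binding EPHA2, read 232 and 208 in the same order, a log2 ratio of 0.27 or 1.21-fold higher with miR-210. The ratio of EFNA3 was lower than that of EFNA1 by a log2 difference of -0.33, and than that of EFNA4 by -0.04. Probes of unrelated genes would differ with a SD of 0.62 from the spread between probes alone, so the 3 neighbouring ephrin genes were not distinguished. RefSeq also lists a read-through transcript, EFNA4-EFNA3, and whether either probe detects it is not known.

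The other 3 ephrin genes read low on both arrays and did not pass the filter. EFNA5, an A-class ephrin known from axon guidance, read 35 on the miR-210 array and 19 on the ncRNA array. EFNB1, a B-class ephrin with a role in craniofacial development, read 27 on the miR-210 array and 29 on the ncRNA array. EFNB2, the B-class ephrin that marks arterial endothelium, read 24 on the miR-210 array and 10 on the ncRNA array. The normalized log2 ratios were 0.96 for EFNA5, -0.03 for EFNB1 and 1.29 for EFNB2, and with an offset of 10 added before the log they were 0.69, 0.00 and 0.79. Among the 12087 probes under the filter 22.3% were 2-fold or more apart, so a 2-fold ratio at this level is common. Markers of other cell types with no kept probe read between 9 and 26 on the miR-210 array and between 7 and 21 on the ncRNA array. A second VWF probe, also under the filter, read 30 on the miR-210 array and 21 on the ncRNA array. The kept markers of other cell types, which are CD79A, DCN and VWF by its other probe, read higher, at the values given above.

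**Figure D1:**
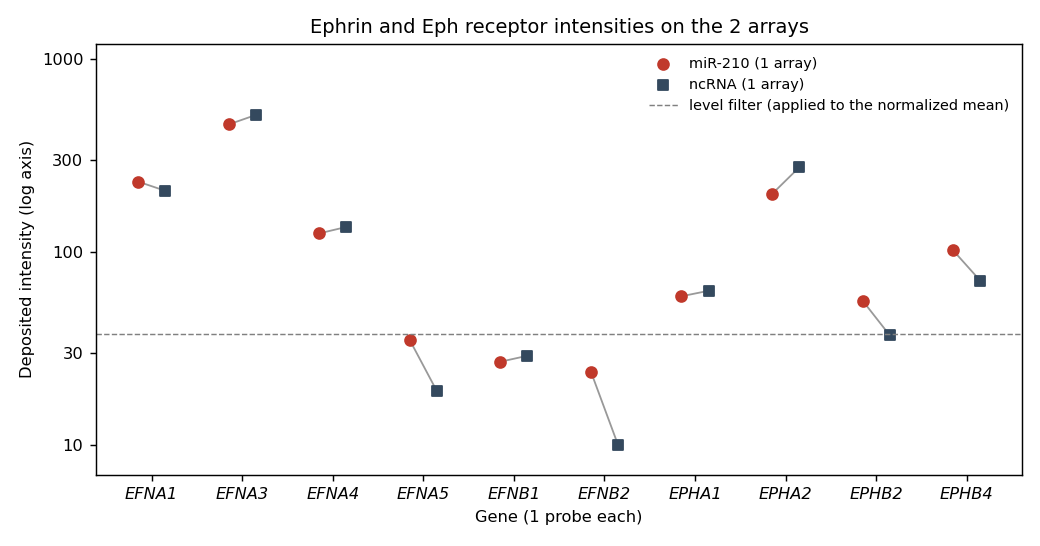
Deposited intensity (log axis) of the 10 ephrin and Eph receptor genes on the miR-210 array (red circles) and the ncRNA array (blue squares), 1 probe and 1 array each, with the level filter, which applies to the normalized mean, as a dashed line. EFNA3 reads 459 with miR-210 and 514 with ncRNA, while EFNA5, EFNB1 and EFNB2 lie under the line on both arrays.

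The EPHA receptor genes among the members, EPHA1 and EPHA2, both lay inside the spread between probes. EPHA2, the receptor of EFNA1 in squamous epithelium, read 200 on the miR-210 array and 275 on the ncRNA array. It was 1.27-fold lower with miR-210 (log2 ratio -0.35). EPHA1, the receptor for which the family was first named, read 59 on the miR-210 array and 63 on the ncRNA array, and its log2 ratio was 0.00. On the deposited scale, which places the median gene at -0.12, the EPHA1 ratio was -0.09.

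The EPHB receptor genes among the members both read higher with miR-210. EPHB2, a receptor of B-class ephrins known for the positioning of intestinal epithelial cells, read 56 on the miR-210 array and 37 on the ncRNA array, a log2 ratio of 0.69 or 1.61-fold higher with miR-210. EPHB4, the receptor of EFNB2 that marks venous endothelium, read 102 on the miR-210 array and 71 on the ncRNA array, a log2 ratio of 0.63 or 1.55-fold higher with miR-210. Both ratios lay further from 0 than the spread between probes, as did those of 34.8% of all genes kept. After normalization EPHB2 stood at 58.0 on the miR-210 array and 36.0 on the ncRNA array, so its ncRNA value was under the filter of 37.5 and it passed through the miR-210 array, where it was higher. The ratio of EPHB2 exceeded that of EPHA2 by 1.04 on the log2 scale. The ratio of EPHB4 exceeded that of EPHA2 by 0.98, against the SD of 0.62 for a pair of probes. These pairs set the highest ratios among the kept members against the lowest, which makes the gaps large by choice. EPHB2 and EPHB4 were among the 2228 dimmest genes kept, whose ratios scattered with a SD of 0.58, while EFNA3 was among the 2228 brightest, with a SD of 0.50.

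None of the 7 members that passed the filter was 2-fold or more apart, against a background of 6.21% of the 6684 genes kept. At 1.5-fold, EPHB2 and EPHB4 were higher with miR-210 and no member was lower, 2 of 7, against a background of 22.7% (11.9% higher and 10.8% lower). These calls depend on the processing: EPHB4 stood at 0.52 on the deposited scale, and with an offset of 10 EPHB2 and EPHB4 both stood at 0.56, all short of 1.5-fold. The median ratio over the 7 was 0.00, with 3 above 0, 3 below and 1 at 0, and the median over all genes kept was 0.01. The ratios of the 7 ranged from -0.35 to 0.69 with a SD of 0.38, beside a SD of 0.54 over all genes kept.

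**Figure D2:**
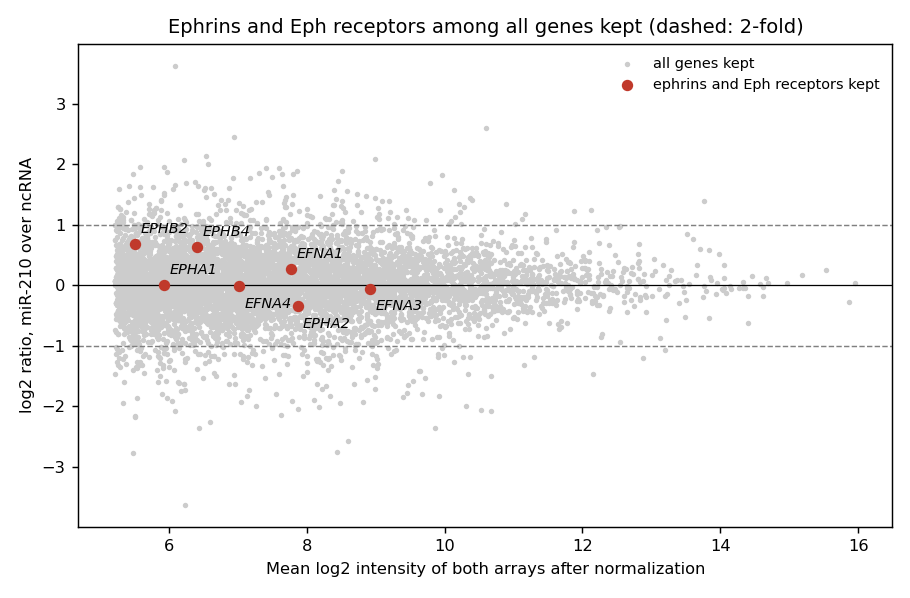
Log2 ratio of miR-210 over ncRNA against the mean log2 intensity of both arrays after normalization, for all 6684 genes kept (grey) and the 7 ephrin and Eph receptor genes among them (red). The 7 lie between -0.35 and 0.69, inside the dashed 2-fold lines.

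The other 12 genes of the family were all named on the array, and 2 of them passed the filter. EPHA8, a receptor known mainly from the nervous system, read 36 on the miR-210 array and 69 on the ncRNA array, a log2 ratio of -0.83. EPHB3, which acts beside EPHB2 in intestinal epithelium, read 41 on the miR-210 array and 71 on the ncRNA array, a log2 ratio of -0.69. EPHB3 was thus lower with miR-210 where EPHB2 and EPHB4 were higher, and the 3 EPHB genes that passed the filter did not share a direction. The remaining 10, which are EFNA2, EFNB3, EPHA3, EPHA4, EPHA5, EPHA6, EPHA7, EPHA10, EPHB1 and EPHB6, read between 8 and 38 on the miR-210 array and between 0 and 28 on the ncRNA array. Those with the highest ratios were EPHA5, at 15 on the miR-210 array and 5 on the ncRNA array, and EPHA3, at 13 and 6, and with the offset of 10 neither reached 2-fold, at log2 ratios of 0.74 and 0.52. EPHA7 was listed at 12 on the miR-210 array and at 0 on the ncRNA array, so it has no ratio without the offset. With it the log2 ratio of EPHA7 was 1.39, from values under the filter on both arrays.

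**Figure D3:**
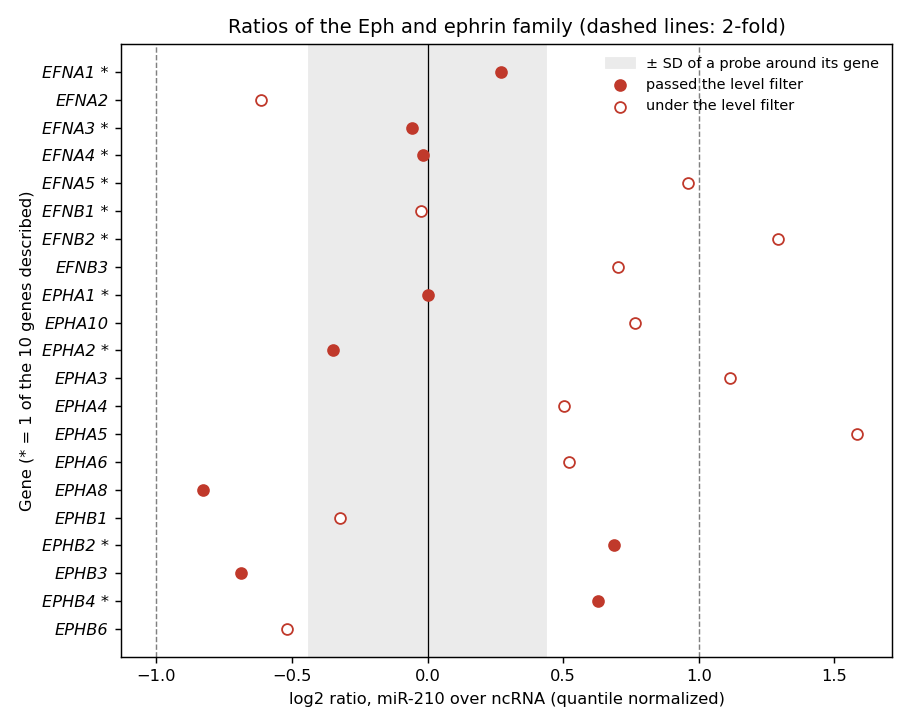
Log2 ratio of miR-210 over ncRNA for the 21 Eph and ephrin genes with a value above 0 on both arrays, by class, with genes that passed the level filter filled and the others open. The grey band is the spread between probes, 0.44 either side of 0, and the filled points outside it are EPHB2 and EPHB4 on the higher side and EPHA8 and EPHB3 on the lower side.

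Genes that act with Eph receptors and ephrins inside the cell or at the membrane were described as a list of 65, and 53 of these had a probe, 28 of them above the filter. Of the 28, 12 were above 0 and 16 below, with a median log2 ratio of -0.09. One, GJA1, was 2-fold or more lower with miR-210 and none was 2-fold or more higher, against a background of 3.19% lower and 3.02% higher. GJA1, which encodes the gap junction protein connexin 43, read 157 on the miR-210 array and 417 on the ncRNA array, which is 2.44-fold lower (log2 ratio -1.29). YES1, a kinase of the SRC family, read 335 and 725 in the same order, a log2 ratio of -0.9999 that stopped just short of 2-fold. Its second probe read 13 on the miR-210 array and 12 on the ncRNA array and was under the filter.

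Among the other partners that passed the filter the ratios were smaller. The kinase genes SRC and FYN, which Eph receptors use for signalling, stood at log2 ratios of -0.15 and -0.13, and LYN stood at -0.38. Of the phosphatases, PTPN11, which encodes SHP2, read 2220 on the miR-210 array and 3893 on the ncRNA array, a log2 ratio of -0.63, and PTPN13 read 74 and 52 in the same order, a log2 ratio of 0.62. Both kept proteases of the list were above 0, as were 3358 of the 6684 genes kept. ADAM10, which cleaves A-class ephrins at the cell contact, stood at 0.35. ADAM17, the TNF-converting protease, stood at 0.68, from intensities of 48 with miR-210 and 32 with ncRNA. After normalization its ncRNA value was 31.0, under the filter, so it passed through the miR-210 array, where it was higher. MMP14, the other protease with a probe, was under the filter, at a log2 ratio of -1.10 from 7 and 15.

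The 6 kept adaptors and scaffolds were below 0, as were 3250 of the 6684 genes kept, and 5 of the 6 were inside the spread between probes. Under the filter, adaptors lay on both sides of 0, from -3.49 for GRIP1 and -1.59 for DOK1 to 0.78 for GRB10 and 1.26 for GRB7. AFDN, which encodes the junctional scaffold afadin, read 602 on the miR-210 array and 980 on the ncRNA array, a log2 ratio of -0.57. A second AFDN probe, under the filter, read 16 and 32 in the same order, a log2 ratio of -0.95. NCK1 stood at -0.22, SDCBP, which encodes syntenin, at -0.19, SHC1 at -0.10, PICK1 at -0.08 and CRK at -0.02. The kept effectors of small GTPases, ROCK2 and ROCK1, stood at -0.24 and -0.17, and HRAS at -0.10. On the other side, RYK, a catalytically inactive receptor kinase that can associate with Eph receptors, read 118 on the miR-210 array and 85 on the ncRNA array, a log2 ratio of 0.59. RIN1, an exchange factor of RAB5 that takes part in Eph receptor endocytosis, read 449 and 350 in the same order, a log2 ratio of 0.47. In total 8 of the 28 kept partners lay further from 0 than the spread between probes, beside the 34.8% of all genes kept.

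**Figure D4:**
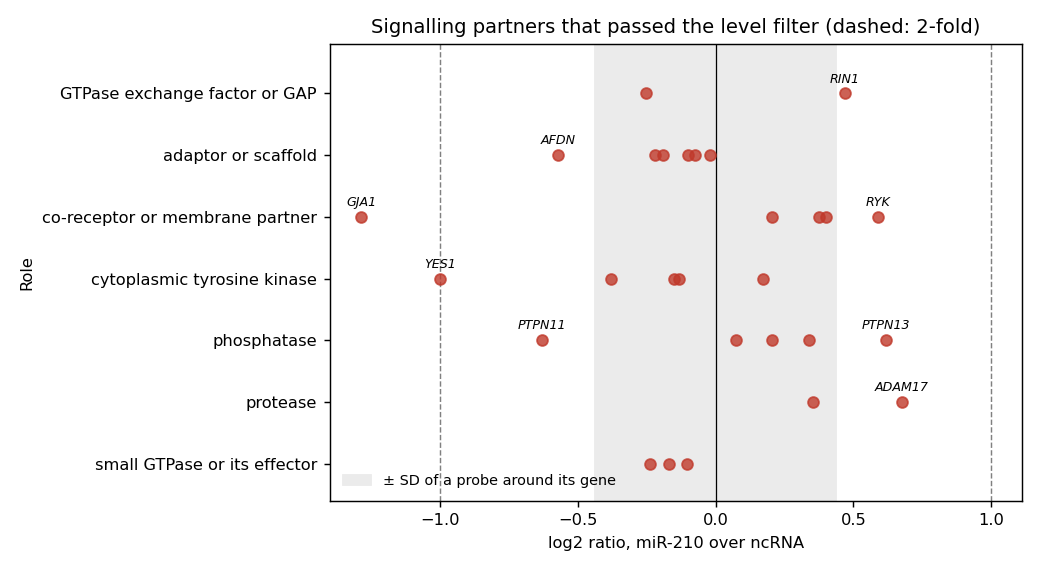
Log2 ratio of miR-210 over ncRNA for the 28 signalling partners of Eph receptors and ephrins that passed the level filter, by role, with the spread between probes of 0.44 as a grey band and 2-fold as dashed lines. GJA1 lies past the lower 2-fold line, YES1 lies at it, and 20 of the 28 lie inside the band.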

How the data were processed

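The authors deposited intensity values on a linear scale, whole numbers for 24267 probes of each array. The values themselves showed the unit, and those below 0 require an earlier background subtraction. Background correction, scaling and scanner are not given in the labels or files. Per the labels' protocols, cRNA came from 500 ng of total RNA. Groups came from the sample titles.

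Log2 values of the 24177 probes above 0 on both arrays were quantile normalized. The 12090 probes with a mean at or above the median were kept, and the brightest stood for its gene. The platform annotation named 13395 probes, and 2285 symbols were updated through RefSeq (GRCh38.p14). No build is named for the array, so genes carry no coordinates. The spread between probes, from the 2 brightest kept probes of a gene, does not cover cultures, RNA extraction or arrays, and the number of arrays limits the precision. Calls were by size, at 2-fold. The text names all family genes, 3 reported targets and the 8 partners furthest from 0, and adds other partners by role after their values were seen. Members and lists were chosen with earlier results of these data known. The normalization was tested on simulated data. Python 3.11.15, pandas 2.3.3 and statsmodels 0.14.6 were used.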

Additional observations from a re-analysis of the deposited data

How the results depend on the processing

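The EFNA3 ratio, the counts 2-fold or more apart, the medians of the members and partners and the ratios of the named genes were recomputed on the deposited scale, with median scaling, with loess on level, with an offset of 10, with no level filter, with the filter at the 75th percentile, with the mean over kept probes and, for counts, at 1.5-fold. The median ratio of the members, that of the partners and the EFNA3 ratio moved by less than the spread between probes in each. The EFNA3 ratio, from 1 probe that passed each filter, could not move with the filter or the mean over probes. Members 2-fold or more apart numbered 0, but 1 of 10 with no filter (EFNB2) and 2 at 1.5-fold (EPHB2 and EPHB4). The other family genes also numbered 0, but 2 with no filter (EPHA3 and EPHA5), where EPHA7 had no ratio, and 2 at 1.5-fold (EPHA8 and EPHB3). Partners numbered 1, but 2 on the deposited scale and with median scaling, where YES1 passed, 6 of 53 with no filter and 6 of 28 at 1.5-fold. As background, with no filter 874 of 12405 genes were 2-fold or more higher and 862 lower. At 1.5-fold the background was 22.7% of the 6684 genes kept. The filter at the 75th percentile kept 3 members. The deposited scale moved the median of all genes kept to -0.12, with 140 genes 2-fold higher and 318 lower in place of 202 and 213, so that 30.6% of them in place of 48.7% were higher. The EPHA1 ratio lay between -0.09 and 0.01, and so has no direction. For partners by role the filter and the probe rule were not varied, and the ratios of neighbouring genes, the differences between ratios, ranks and counts outside the spread between probes were not recomputed. No paired analysis was possible because each group has 1 array, and for the same reason no replicate could be left out.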

Other observations

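The ephrin genes EFNA4, EFNA3 and EFNA1 are neighbours on chromosome 1, and the 5 nearest protein-coding genes named on the array on each side were looked up after the members' values had been seen. Of these 10 genes, 7 passed the level filter, and none of them was 2-fold or more apart, beside 6.21% of all genes kept. Their log2 ratios lay between -0.20 and 0.39, with 5 above 0 and 2 below. KRTCAP2, a subunit of the oligosaccharyltransferase, read 3782 on the miR-210 array and 3334 on the ncRNA array, a log2 ratio of 0.39. MTX1, a protein of mitochondrial import, read 610 and 501 in the same order, also a log2 ratio of 0.39. DPM3, a subunit of dolichol-phosphate mannose synthase, had 2 kept probes, at 0.26 and 0.48. THBS3, a thrombospondin, was the lowest, with 212 on the miR-210 array and 262 on the ncRNA array, a log2 ratio of -0.20.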
